A study of Mus musculus with 18 samples.

Results

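The potassium channel subunit genes of the mouse were followed across sorted microglia and the remaining cells of the retina, in mice with and without the circadian clock gene Bmal1 in microglia. The set holds every protein-coding gene of the deposited count table whose symbol begins with Kcn. These were 94 genes of 55487 in the table, and of 21936 that are protein coding. By subfamily, 40 genes encode pore-forming or silent voltage-gated (Kv) subunits, 15 inward rectifiers (Kir), 14 two-pore-domain subunits (K2P), 8 calcium- or sodium-activated channels, and 17 auxiliary subunits that modify other channels. Another 5 genes with a Kcn symbol are antisense transcripts and were left out.

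Dissociated retinas were flow sorted into viable CD11b+ DAPI- cells, called microglia here, and viable CD11b- DAPI- cells, called retina. CD11b is a surface protein of myeloid cells, and DAPI marks dead cells. The control mice were Bmal1f/f, with floxed Bmal1 alleles, and the knockout mice were Bmal1-mg/-mg, which lack the gene in microglia. There were 4 control and 5 knockout libraries in each fraction, 18 in all. The Cre driver, age and sex of the mice, and whether a library came from 1 animal or a pool, are not given in the sources used here, so a p-value speaks only to how these libraries vary, which may be technical.

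Potassium channels let potassium leave or enter a cell down its electrochemical gradient and thereby set the resting potential and shape electrical signals. Kv channels open on depolarization, Kir channels pass current best near and below the resting potential, K2P channels carry background current, and calcium-activated channels open when cytosolic calcium rises. In rod and cone photoreceptors, the silent subunit Kv8.2 (Kcnv2) takes part in the inner segment current that shapes the light response. Microglia are known for a background current through THIK-1 (Kcnk13) and, when activated, for Kv1.3 (Kcna3), Kir2.1 (Kcnj2) and KCa3.1 (Kcnn4), which act in surveillance and in cytokine release.

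BMAL1 binds DNA as a dimer with CLOCK at the E-box, so the bases upstream of the members were searched for that motif. RefSeq promoter windows on GRCm38.p6 were matched by symbol for 69 of the 94 members, and the 250 bases before each annotated start were read on both strands. Kcnv2, Kcnj14, Kcnk6 and Kcnd1, described below, were among the members without a window, so the shares do not cover them. The E-box CACGTG, which reads the same on both strands, was present for 5 of the 69 members (7.25%, against 6.86% of 27025 genes): Kcnab1, Kcne4, Kcnh4, Kcnj2 and Kcnn4. The letters GAGGAA, a core of the myeloid factor PU.1, were present for 21 (30.4%, against 25.9%), and TAATCC, a core of the photoreceptor factor CRX, for 2 (2.90%, against 7.21%). No motif of the 3 is part of another, and a match is only a description of the sequence. The windows of 3 E-box members described below, and that of Kcnk13, the microglial background channel, are shown 5′ to 3′ on the strand of the gene, with the matched letters of either motif in capitals. The E-box begins 45 bases before 1 of the annotated starts of Kcnab1, 84 bases before the start of Kcnj2 and 133 before that of Kcnn4, and the PU.1 core begins 30 bases before the start of Kcnk13.
Kcnab1, chr3:65187853-65188102, plus strand: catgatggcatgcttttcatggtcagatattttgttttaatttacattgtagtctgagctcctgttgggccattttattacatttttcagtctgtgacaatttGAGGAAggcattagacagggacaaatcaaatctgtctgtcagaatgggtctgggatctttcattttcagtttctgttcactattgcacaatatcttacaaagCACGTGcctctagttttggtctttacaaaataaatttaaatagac
Kcnj2, chr11:111065914-111066163, plus strand: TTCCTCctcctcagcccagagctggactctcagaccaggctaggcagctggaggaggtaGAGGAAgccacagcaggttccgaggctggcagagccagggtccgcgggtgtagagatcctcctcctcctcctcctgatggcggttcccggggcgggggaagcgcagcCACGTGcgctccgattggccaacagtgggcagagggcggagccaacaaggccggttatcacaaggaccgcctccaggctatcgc
Kcnn4, chr7:24370013-24370262, plus strand: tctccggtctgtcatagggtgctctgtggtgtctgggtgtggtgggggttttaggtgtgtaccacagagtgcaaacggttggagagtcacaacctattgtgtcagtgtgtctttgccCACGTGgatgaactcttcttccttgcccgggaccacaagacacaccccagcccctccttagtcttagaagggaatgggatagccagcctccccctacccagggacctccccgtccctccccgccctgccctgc
Kcnk13, chr12:99964249-99964498, plus strand: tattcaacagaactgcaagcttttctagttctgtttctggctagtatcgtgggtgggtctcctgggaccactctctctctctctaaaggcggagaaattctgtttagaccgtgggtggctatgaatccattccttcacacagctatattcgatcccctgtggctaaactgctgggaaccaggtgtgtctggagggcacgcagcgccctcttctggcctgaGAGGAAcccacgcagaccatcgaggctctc
The 4 windows held 0 bases of annotated exons.

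Levels are given as CPM, the count relative to the library total after scaling by composition factors, and as CPM per kilobase of annotated exon where genes are compared with each other. Libraries held 32277156 to 47563119 counts, and 3 counts correspond to between 0.0631 and 0.0929 CPM. The summed level of 8 microglial markers was 45607 to 56079 CPM in the microglia libraries and 8.15 to 18.9 CPM in the retina libraries, so the sort separated these cells. Rod markers were also present in the microglia fraction, at a sum of 5055 to 11634 CPM against 113911 to 207103 CPM in retina. The targeted gene, listed as Arntl, had 9.89 to 26.9 CPM in control and 2.10 to 24.1 CPM in knockout microglia, ranges that overlapped (log2 change -0.44, SE 0.62, adjusted p = 0.999), and the count covers the whole gene, so it does not check the deletion.

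Of the 94 members, 5 had no count in any library, namely Kcnj1, Kcnj16, Kcnk16, Kcnk18 and Kcnv1, and 21 stayed under 10 counts in every library. The level of 1 CPM, as a group mean, was reached by 33 members in control microglia, 35 in knockout microglia, 46 in control retina and 51 in knockout retina, and by 62 in any group. All members together took 0.0903 to 0.134% of the counts of a microglia library and 0.653 to 0.763% of those of a retina library. Retina held the greater number of Kv genes at that level, 23 in controls against 16 in microglia, while K2P genes went the other way, with 3 against 5.

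**Figure D1:**
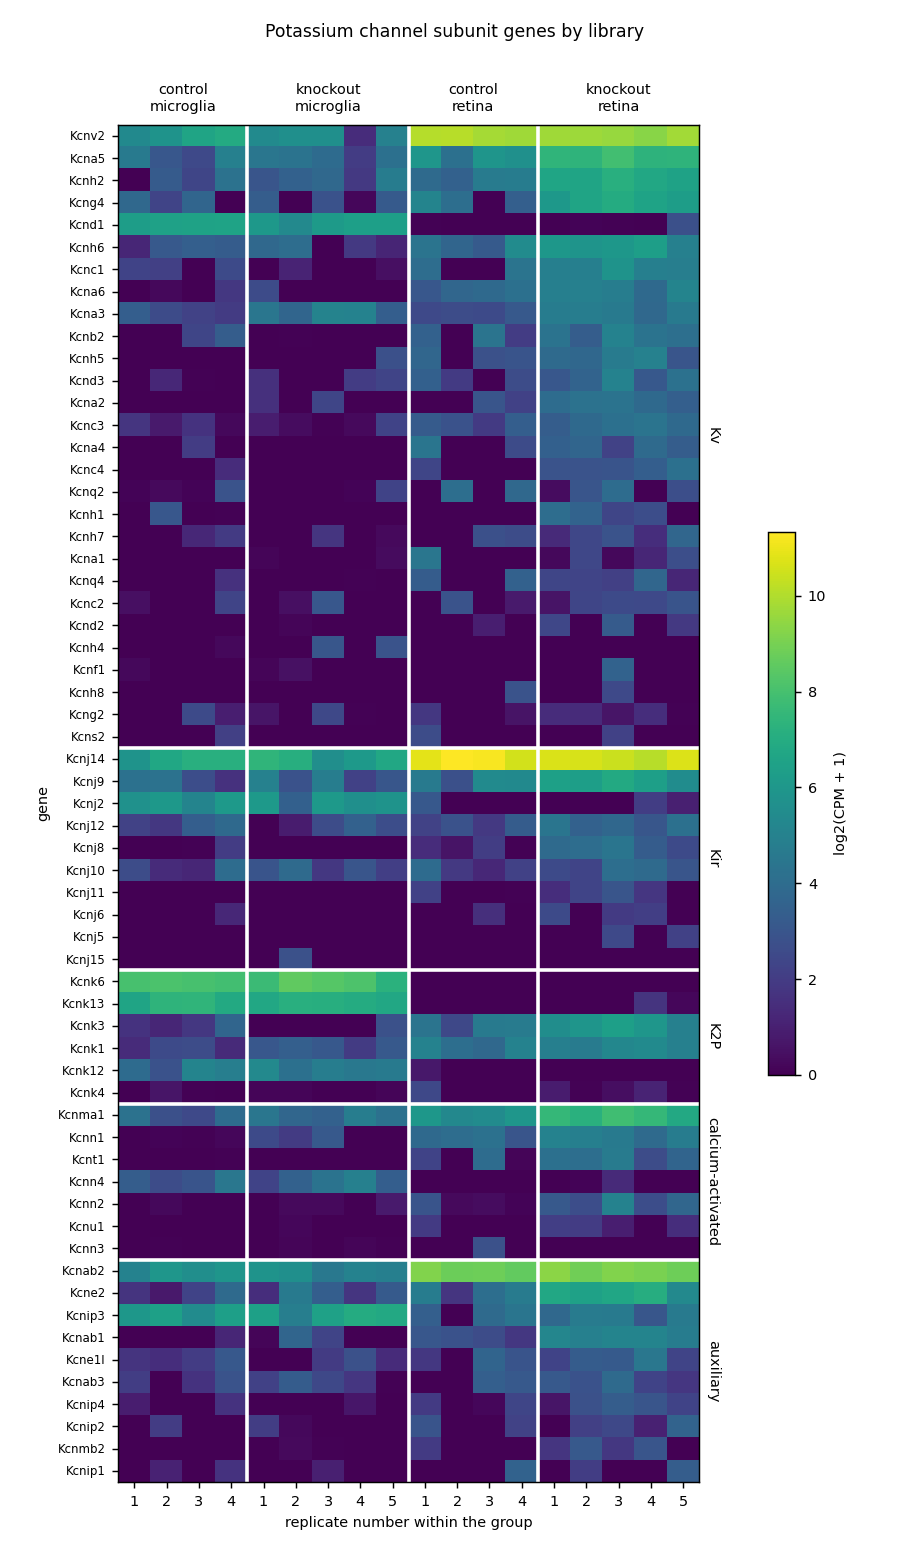
Level of 61 of the 62 members that reach a group mean of 1 CPM (1 is not drawn), as log2(CPM + 1), in each of the 18 libraries, by subfamily. Kcnv2, Kcnj14 and Kcnab2 are bright across the retina libraries and weaker in microglia, Kcnk6 and Kcnk13 are bright in microglia alone, and many low members are filled in knockout retina and patchy in control retina.

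Detection of the lower members was patchy from library to library. In control retina, 51 members reached 100 counts in a library, and 29 of these (56.9%) had 0 counts in another library of the same group, against 18.8% of protein-coding genes. In knockout retina this held for 15 of 54 members (27.8%, against 11.02%), in control microglia for 12 of 36 (33.3%, against 11.2%) and in knockout microglia for 14 of 38 (36.8%, against 19.4%). Kcna1, for example, had 20.8 CPM in control retina replicate 1 and 0 in the other 3 control retina libraries. The libraries were amplified from 1 to 2 ng of RNA, so counts are not numbers of molecules.

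Kcnk6, Kcnk13 and Kcnk12 of the K2P subfamily were higher in microglia. Kcnk6 (TWIK-2, a background channel through which macrophages lose potassium before inflammasome activation) had 257, 276, 263 and 237 CPM in control microglia and 211, 377, 322, 286 and 149.8 CPM in knockout microglia. It had 0 counts in all 9 retina libraries, so the microglial level was at least 13850.0-fold higher in controls and at least 16031-fold higher in knockouts, taking 3 counts over the group as the floor. Kcnk13 (THIK-1; ENSMUSG00000045404, chromosome 12, 99964499 to 100062682, plus strand, GRCm38) had 96.4, 167, 168 and 119 CPM in control microglia and 111, 141, 138, 125 and 109.9 CPM in knockout microglia. In retina Kcnk13 had 1 count over the 4 control libraries, a ratio of 22023, 95% counting interval 3952 to 869915, and 0, 0.0215, 0, 2.22 and 0.1405 CPM in the knockout libraries. Every microglia library lay far above every retina library for both genes. Kcnk12 (THIK-2), the closest relative of THIK-1 and able to join it in a channel, had 14.7, 6.19, 33.97 and 28.1 CPM in control microglia, 39.8, 17.1, 27.1, 22.3 and 24.1 CPM in knockout microglia, 0.651, 0, 0 and 0 CPM in control retina and 0 counts in knockout retina. The knockout ratio was at least 1592-fold.

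Across all members, 37 could be tested between the fractions in controls, and 12 of them (32.4%) were called at an edgeR adjusted p under 0.05, against 40.2% of the 15188 genes tested. Of these, 5 were higher in microglia and 7 lower, where 22.8% and 17.4% of all genes were. In knockouts 46 members could be tested and 30 were called (65.2%, against 44.9% of 15211 genes), 7 higher and 23 lower (23.7% and 21.2% of all genes). A gene can enter these tests through 1 fraction alone, so the counts describe the members that entered and give no rate for all 94. The 2 comparisons share no library, and 11 members were called in both, always in the same direction, which is 91.7% of the control calls and 36.7% of the knockout calls. By subfamily, in controls, microglia were higher for 1 and lower for 2 of 16 Kv genes, 0 and 1 of 6 Kir genes, 3 and 1 of 5 K2P genes, 1 and 2 of 3 calcium-activated genes, and 0 and 1 of 7 auxiliary genes. In knockouts the corresponding counts were 1 and 12 of 22 Kv genes, 1 and 3 of 6 Kir genes, 3 and 2 of 5 K2P genes, 1 and 3 of 5 calcium-activated genes, and 1 and 3 of 8 auxiliary genes.

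Beside the K2P genes, Kcnd1 and Kcnn4 were the members called higher in microglia in both genotypes. Kcnd1 (Kv4.1, a pore subunit of the fast inactivating A-type current; ENSMUSG00000009731, chromosome X, 7822289 to 7838280, plus strand) had 78.5, 88.8, 91.8 and 94.7 CPM in control microglia and 64.3, 39.1, 70.6, 83.8 and 82.5 CPM in knockout microglia. In retina it had 3 counts over the control libraries, a ratio of 4727, 95% counting interval 1617 to 22925, and 0.0256, 0.08604, 0.0509, 0 and 5.71 CPM in the knockout libraries, where replicate 5 alone was above 0.1 CPM. Kcnn4 (KCa3.1, the intermediate-conductance calcium-activated channel of immune cells) had 9.21, 5.24, 6.67 and 21.3 CPM in control microglia, 3.796, 10.6, 18.9, 29.9 and 9.504 CPM in knockout microglia and 0, 0.08604, 1.55, 0 and 0.0234 CPM in knockout retina. Its control ratio was 1675, 95% counting interval 300.3 to 66214, from 1 retina count. Among the 5 genes called higher in both genotypes, Kcnk12 lost its call in controls without control microglia replicate 3 (edgeR adjusted p = 0.0538), and Kcnn4 lost it in knockouts without knockout retina replicate 2 (0.0525).

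Kcnj2 and Kcnip3 were called higher in microglia in knockouts and missed the threshold in controls. Kcnj2 (Kir2.1, the classical strong inward rectifier) had 52.1, 64.9, 33.8 and 66.2 CPM in control microglia and 68.4, 10.1, 68.3, 48.8 and 55.01 CPM in knockout microglia, against 7.66, 0, 0 and 0 CPM in control and 0, 0, 0, 3.195 and 0.983 CPM in knockout retina. The fitted log2 difference was 4.77 in controls (SE 2.06, adjusted p = 0.102) and 5.82 in knockouts (SE 1.66, adjusted p = 0.0156), and the groups did not overlap in either genotype. A single library, control retina replicate 1, held the Kcnj2 level of its group, and without it the gene was called in controls (edgeR adjusted p = 0.000136). Kcnip3 (KChIP3, a calcium-binding partner of Kv4 channels) had 63.7, 86.1, 43.7 and 83.4 CPM in control microglia and 9.82, 0.02797, 14.1 and 20.4 CPM in control retina. In knockouts it had 85.2, 27.6, 88.9, 125 and 113 CPM in microglia and 13.2, 25.02, 24.7, 7.18 and 23.7 CPM in retina (log2 difference 2.15, SE 0.46, adjusted p = 0.00321). Kcnip3 was called in controls without control retina replicate 2 (edgeR adjusted p = 0.00342).

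**Figure D2:**
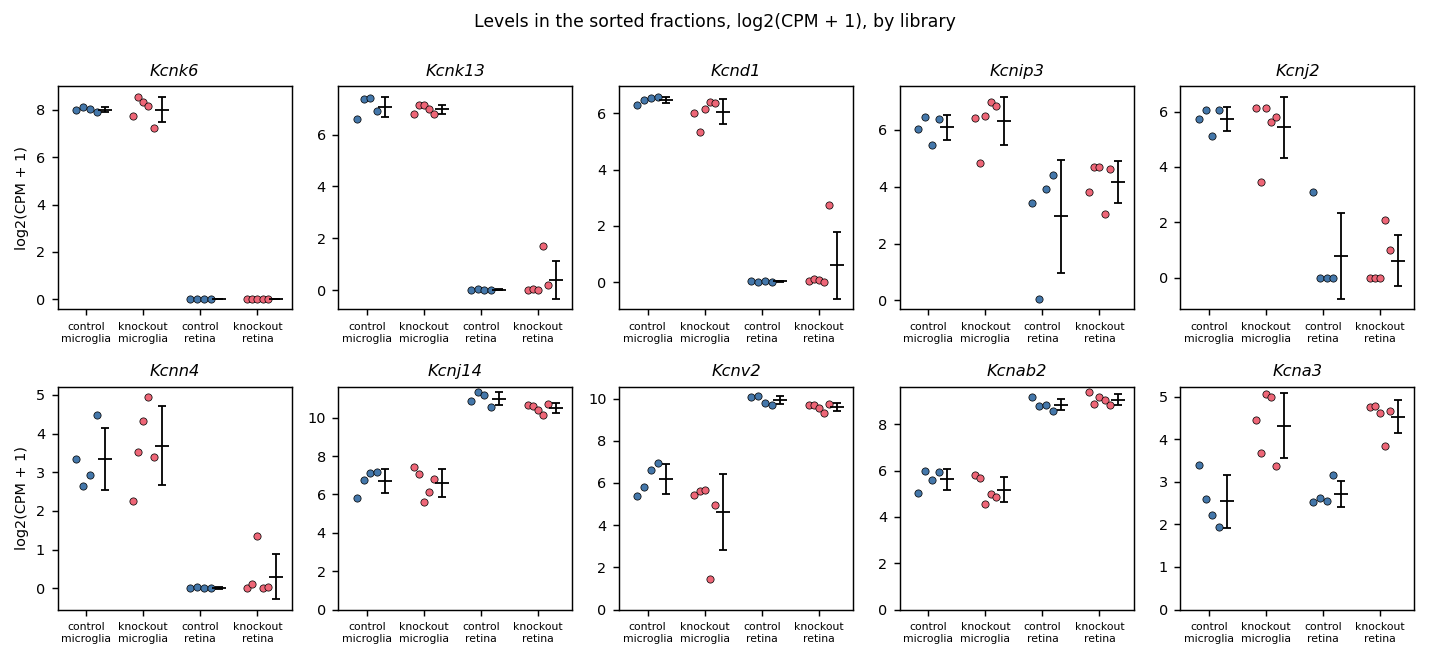
Level of 10 members in the 4 groups as log2(CPM + 1); each point is a library and the bar is the mean with its SD (n = 4 controls, n = 5 knockouts). Kcnk6, Kcnk13 and Kcnd1 lie above 5 in microglia and near 0 in retina, apart from knockout retina replicate 4 for Kcnk13 and replicate 5 for Kcnd1, Kcnn4 is higher in microglia, Kcnj14, Kcnv2 and Kcnab2 are higher in retina, and Kcna3 has means near each other in both fractions of each genotype.

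Per length, a few genes stood high in the retina fraction. In control retina Kcnj14 had 768 ± 173 CPM per kilobase, Kcnv2 192 ± 27.1 and Kcnab2 83.6 ± 14.8 (mean ± SD, n = 4). Kcna5 had 16.3 ± 7.01 CPM per kilobase, and each of these 3 exceeded it by more than its own SD. Kcnj14 encodes Kir2.4, an inward rectifier of photoreceptors and motor neurons, and Kcnab2 encodes Kvβ2, a cytoplasmic subunit of Kv1 channels. In control microglia the order per kilobase was Kcnk6 at 62.2 ± 3.83, Kcnk13 at 44.1 ± 11.5, Kcnj14 at 40.7 ± 14.6, Kcnip3 at 19.5 ± 5.57 and Kcnd1 at 16.7 ± 1.33. Kcnk13 and Kcnj14, and Kcnip3 and Kcnd1, did not differ beyond their spread. The highest K2P gene in control retina was Kcnk1 (10.4 ± 4.45). The highest calcium-activated gene was Kcnma1 (3.02 ± 0.743) in control retina and Kcnn4 (2.07 ± 1.43) in control microglia. The genes given here for control retina are not a full ranking.

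Kcnj14, Kcnv2 and Kcnab2 were lower in microglia. Kcnj14 (ENSMUSG00000058743, chromosome 7, 45816460 to 45824782, minus strand) had 1887, 2578, 2355 and 1527 CPM in retina and 56.1, 106, 139 and 141 CPM in microglia of controls (log2 difference -4.28, SE 0.36, adjusted p = 4.85e-05). For Kcnv2 the control values were 1073, 1120.5, 886 and 838 CPM in retina and 40.6, 55.8, 98.3 and 122 CPM in microglia (-3.67, SE 0.38, adjusted p = 0.000156). Kcnab2 had 581, 443, 457 and 385 CPM in retina and 31.3, 61.4, 46.8 and 59.5 CPM in microglia (-3.27, SE 0.26, adjusted p = 3.93e-05). No microglia library reached a retina library for any of the 3 genes. Their log2 differences in knockouts were -3.88, -4.59 and -3.93 in the same order, all called.

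The level of these 3 genes in the microglia fraction was set beside that of rod markers, since rod transcripts were counted there. In controls the 10 rod markers stood in microglia at 4.13 to 5.84% of their retina level, with a median of 5.05%, and none was at 0. Kcnj14 stood at 5.30%, Kcnv2 at 8.09% and Kcnab2 at 10.7%. In knockouts the rod markers stood at 4.87 to 9.40%, and the members at 7.19, 4.38 and 6.91% in the same order. Kcnj14 thus lay within the rod range in both genotypes, and Kcnab2 above it in controls and inside it in knockouts. Kcnv2 lay above it in controls and below it in knockouts. Its knockout microglia values were 41.9, 48.5, 49.1, 1.73 and 30.2 CPM, so replicate 4 lowered that percentage, and no genotype difference is read from it. Markers of other retinal cells were also counted in the microglia fraction. Cone markers stood at 11.6 to 19.7% of their retina level in controls and 0 to 9.72% in knockouts. Bipolar markers stood at 6.12 to 40.0% and 3.30 to 17.4%. The part that RNA of rods or other retinal cells has in the microglial level of Kcnj14, Kcnv2 and Kcnab2 was not tested. The genes called higher in microglia had few retina counts in controls, 0 for Kcnk6, 1 each for Kcnk13 and Kcnn4, 3 for Kcnd1 and 34 for Kcnk12.

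**Figure D3:**
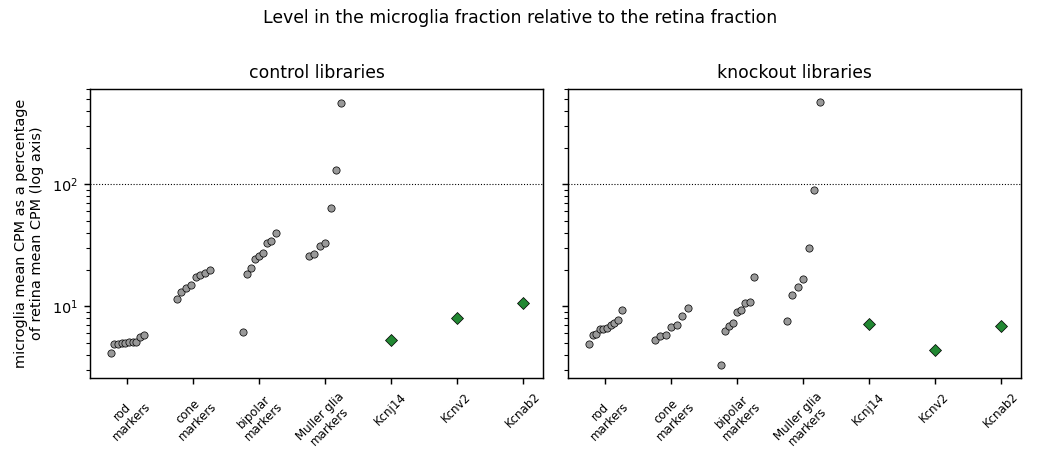
Mean CPM in the microglia fraction as a percentage of mean CPM in the retina fraction, on a log axis, for marker genes of retinal cell types (grey circles, 1 per gene; Cngb3, at 0 in knockout microglia, is not drawn) and 3 members (green diamonds). Kcnj14 lies within the spread of the rod markers in both panels, and the dotted line marks equal levels.

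Further genes were lower in microglia in both genotypes. Kcnma1 (BK, the large-conductance calcium- and voltage-activated channel) had 18.2, 5.86, 4.68 and 14.4 CPM in control microglia and 63.1, 38.2, 42.9 and 61.2 CPM in control retina (log2 difference -2.29, SE 0.48, adjusted p = 0.00603). Kcnk1 (TWIK-1, a weak background channel) had 1.61, 4.85, 5.26 and 1.54 CPM in control microglia and 31.8, 16.2, 13.2 and 31.8 CPM in control retina (-2.85, SE 0.59, adjusted p = 0.00572). Both were called in knockouts as well, at -3.36 and -2.26. Kcnn1 (SK1, a small-conductance calcium-activated channel) was called in controls alone. It had 0.02398, 0.0774, 0.0503 and 0.162 CPM in control microglia, 13.6, 15.5, 17.7 and 6.92 CPM in control retina, 4.89, 2.93, 8.09, 0 and 0 CPM in knockout microglia and 31.2, 28.6, 24.1, 13.9 and 26.1 CPM in knockout retina, so 3 knockout microglia libraries had levels above those of all control microglia. The difference between the genotypes in this contrast was 4.41 (SE 1.75, adjusted p = 0.297) and not called.

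Other members were also called lower in microglia in knockouts. Several were almost restricted to retina there. Kcnt1 (Slack, a sodium-activated channel) had 1 count over the knockout microglia libraries and 17.2, 16.0, 25.4, 5.13 and 11.4 CPM in knockout retina. Kcnb2 (Kv2.2) had 2 counts against 18.9, 8.99, 31.4, 18.9 and 16.6 CPM, and Kcnc4 (Kv3.4) had 2 counts against 6.55, 6.54, 6.78, 9.42 and 16.95 CPM. Controls did not show this for Kcnb2, with 0, 0, 4.13 and 9.12 CPM in microglia and 10.5, 0, 19.2 and 3.08 CPM in retina (log2 difference -1.35, SE 2.24, edgeR adjusted p = 0.665). Kcnc4 was not tested in controls, at 0, 0, 0 and 1.73 CPM in microglia and 4.21, 0, 0 and 0 CPM in retina. Kcnt1, also not tested there, had 2 counts over the control microglia libraries and 3.89, 0, 15.2 and 0.124 CPM in control retina. Its low microglial count was thus not particular to knockouts. Kcnj8 (Kir6.1, the pore of ATP-sensitive channels in pericytes and vascular smooth muscle) had 0 counts in knockout microglia and 14.3, 15.7, 20.2, 8.85 and 4.78 CPM in knockout retina, at least 894-fold higher in retina. Kcnj9 (GIRK3, a G-protein-gated rectifier of neurons) had 30.9, 6.22, 26.7, 3.55 and 7.23 CPM in microglia and 86.2, 79.6, 116, 82.1 and 44.5 CPM in retina of knockouts (log2 difference -2.53, SE 0.61, adjusted p = 0.00656). Kcnn2 (SK2) stood at 0, 0.221, 0.209, 0 and 0.768 CPM in microglia and 8.07, 5.399, 31.1, 5.44 and 12.6 CPM in retina (-5.76, SE 1.38, adjusted p = 0.00642).

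In microglia, the comparison of knockouts with controls asks whether loss of the clock gene in these cells changes their channel genes. None of 30 tested members was called by edgeR, where 0.115% of 14835 genes were, and 1 had an unadjusted p under 0.05 (5.76% of all genes). DESeq2 called 1 member (1.61% of all genes) and limma voom called 0 (0.175%). The median log2 change of the members was -0.01, and that of all genes was -0.01, with 15 members positive and 15 negative (49.5% of all genes were positive). The member with the smallest p was Kcna3 (Kv1.3, the voltage-gated channel of activated lymphocytes and microglia; ENSMUSG00000047959, chromosome 3, 107036169 to 107038070, plus strand). Its level was 9.52, 5.06, 3.699 and 2.87 CPM in control microglia and 20.8, 11.8, 32.6, 31.1 and 9.45 CPM in knockout microglia. The highest control library and the lowest knockout library overlapped narrowly, and the other 4 knockouts lay above all controls (log2 change 2.00, SE 0.54, adjusted p = 0.405, 4.003-fold, 95% interval 1.92 to 8.36). The DESeq2 adjusted p was 0.0112.

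Of the microglia-typical members, Kcnk6 and Kcnk13 differed by less than the SD between libraries of one group, and none of the 3 below was called. Kcnk6 had means of 258 ± 15.9 and 269 ± 89.9 CPM in controls and knockouts (1.04-fold, 95% interval 0.758 to 1.43). Kcnk13 had 137 ± 35.7 and 125 ± 14.6 CPM (0.911-fold, 95% interval 0.713 to 1.16), and Kcnd1 88.5 ± 7.03 and 68.1 ± 18.2 CPM (0.770-fold, 95% interval 0.574 to 1.03). The 2 groups overlapped for each gene, and the adjusted p was 0.999, 0.999 and 0.960. For Kcnj2 the fold interval was wider (0.924-fold, 95% interval 0.489 to 1.75), and for Kcnn4, present at lower level, wider again (1.38-fold, 95% interval 0.572 to 3.31). The smallest p of the other subfamilies belonged to Kcnk1 (log2 change 1.11, SE 0.60, adjusted p = 0.934), Kcnma1 (log2 change 0.71, SE 0.50, adjusted p = 0.999), Kcnab2 (log2 change -0.42, SE 0.31, adjusted p = 0.999) and Kcnj12 (log2 change -0.73, SE 1.17, adjusted p = 0.999). Kcnk1 had 7.49, 9.81, 7.67, 2.98 and 7.84 CPM in knockout against 1.61, 4.85, 5.26 and 1.54 CPM in control microglia, and these ranges overlapped. Kcnc1 (Kv3.1, of fast-spiking neurons) had 3.88, 3.38, 0.0252 and 4.92 CPM in control and 0, 1.16, 0.0262, 0 and 0.371 CPM in knockout microglia (log2 change -3.29, SE 1.73, adjusted p = 0.919).

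In retina, the same comparison asks what differs in the cells around the microglia, which keep their own Bmal1 by the labelled genotype. Kcnh2, Kcnab1, Kcnma1, Kcna3 and Kcna5 were called higher in knockout retina by edgeR, which called no member lower. These are 5 of 50 tested members (10%), where 1.66% of 15332 genes were called, 1.34% higher and 0.326% lower. Over all tested members the median log2 change was 1.29 against 0.00 for all genes, with 43 members positive and 7 negative (50.2% of all genes were positive). A gene can enter this test through 1 genotype alone, as Kcnh1 did with 0 counts in control retina. The median and the signs therefore describe the members that entered and not the whole family. At an unadjusted p under 0.05 there were 16 higher and 3 lower members (7.79% and 6.43% of all genes). DESeq2 called 13 members (7.77% of all genes) and limma voom 5 (2.37%). In bulk libraries like these, more cells of a type and more RNA per cell cannot be told apart.

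Kcnh2 (ERG1, the orthologue of the cardiac hERG channel; ENSMUSG00000038319, chromosome 5, 24319589 to 24351604, minus strand) had 13.99, 10.3, 25.7 and 25.9 CPM in control retina and 102, 98.1, 139, 110.0 and 91.5 CPM in knockout retina (log2 change 2.47, SE 0.30, adjusted p = 0.0135). Kcnab1 (Kvβ1, which speeds inactivation of Kv1 channels; ENSMUSG00000027827, chromosome 3, 65109384 to 65378223, plus strand) had 7.56, 6.27, 5.205 and 2.62 CPM in control libraries and 36.3, 29.3, 33.9, 33.7 and 25.9 in knockout libraries (log2 change 2.51, SE 0.33, adjusted p = 0.0135). Kcnma1 (ENSMUSG00000063142, chromosome 14, 23289431 to 24014491, minus strand) had 63.1, 38.2, 42.9 and 61.2 CPM in control retina, and values of 185, 144, 228, 184 and 114 CPM were measured in knockout retina (log2 change 1.69, SE 0.24, adjusted p = 0.0135). Every knockout library exceeded every control library for these 3 genes, and no omission of a single library, in 9 fits, ended their call. Kcna3 had 4.75, 5.15, 4.81 and 7.91 CPM in control retina, rising to 25.99, 26.5, 23.4, 13.4 and 24.2 CPM in that of knockouts (log2 change 1.97, SE 0.32, adjusted p = 0.0225). Kcna5 (Kv1.5, a delayed rectifier; ENSMUSG00000045534, chromosome 6, 126532551 to 126535412, minus strand) had 60.1, 17.3, 58.9 and 50.4 CPM in control retina, and its knockout values were 172, 164, 236, 161 and 164 CPM (log2 change 1.90, SE 0.34, adjusted p = 0.0306). The groups did not overlap for these either, as was so in the higher direction for 13 tested members and 6.02% of all genes, and in the lower direction for 0 members and 2.69%. Leaving out single libraries cost the call of Kcna3 in 4 of 9 fits (largest adjusted p = 0.0643) and of Kcna5 in 5 (0.0772). Both were lost without control retina replicate 3 or knockout retina replicate 1, 2 or 3, and Kcna5 also without knockout retina replicate 4.

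**Figure D4:**
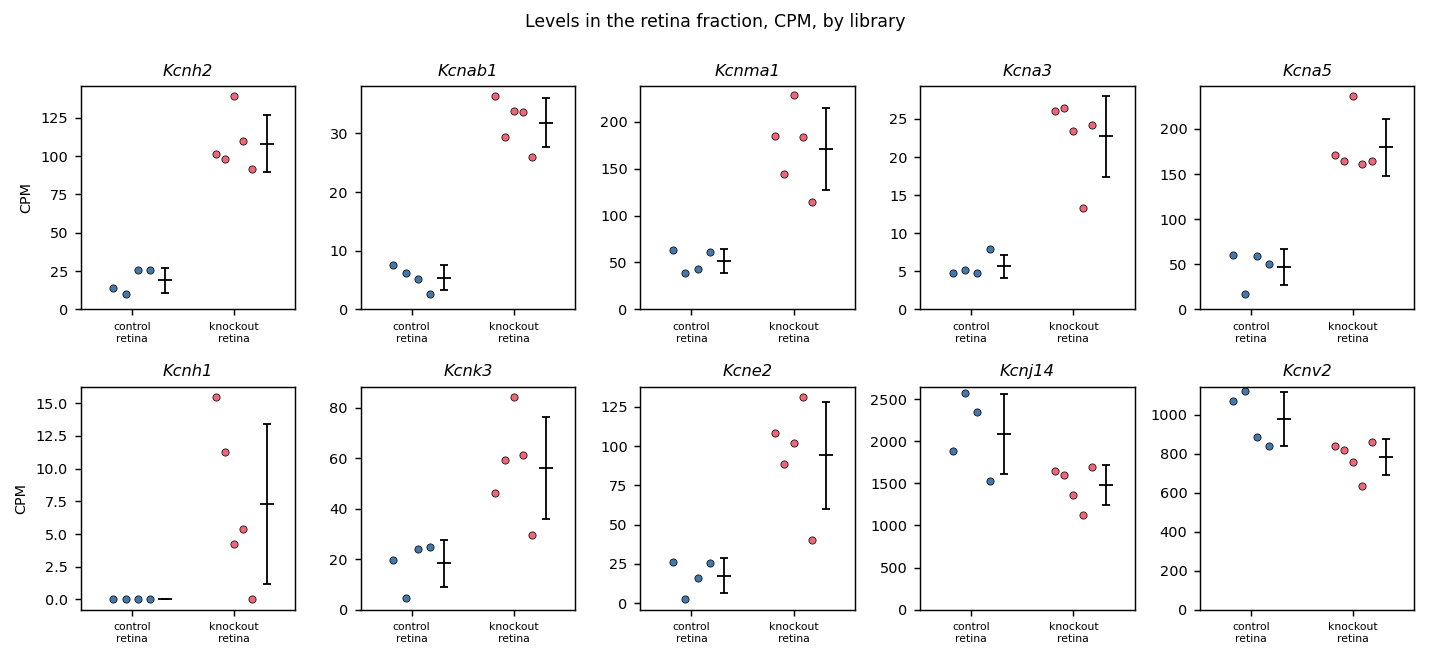
Level in the retina fraction in CPM for 10 members; each point is a library, and the bar is the mean with its SD (n = 4 controls, n = 5 knockouts). The 5 genes of the upper row are higher in every knockout library, Kcnh1 is at 0 in all controls and in 1 knockout, Kcne2 is higher in every knockout library, and Kcnj14 and Kcnv2 have somewhat lower means in knockouts with overlapping groups.

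Members below the threshold in retina gave these values. Kcnh1 (EAG1, a neuronal Kv channel) had 0 counts in all 4 control libraries and 15.5, 11.3, 4.23, 5.41 and 0 CPM in the knockouts, at least 438-fold higher (edgeR adjusted p = 0.0997, DESeq2 2.68e-06). Kcnk3 (TASK-1, an acid-sensitive background channel) had 19.8, 4.48, 23.9 and 24.9 CPM in control libraries and 46.2, 59.4, 84.4, 61.4 and 29.7 in knockout libraries (log2 change 1.57, SE 0.48, adjusted p = 0.152). Kcnj8 had 1.74, 0.532, 3.23 and 0.0413 CPM in control retina, below the knockout values given above (log2 change 3.16, SE 1.03, adjusted p = 0.174). For these 3 genes the knockouts lay above the controls, apart from a tie at 0 in Kcnh1. Kcne2 (MiRP1, a single-pass subunit of Kv channels) had 25.96, 2.32, 16.1 and 25.5 CPM in control libraries and 108, 88.7, 102, 131 and 39.9 in knockout libraries (log2 change 2.38, SE 0.63, adjusted p = 0.1003). Kcnj9 had 23.5, 5.902, 42.3 and 40.7 CPM in controls and the knockout retina values given above (log2 change 1.49, SE 0.51, adjusted p = 0.2005). Kcng4 (Kv6.4, silent on its own) had 33.3, 16.3, 0 and 9.91 CPM in control libraries and 64.1, 96.2, 126, 93.7 and 78.3 in knockout libraries (log2 change 2.57, SE 1.06, adjusted p = 0.302). The groups did not overlap for these 3 genes either. The photoreceptor-type genes had negative values that did not pass, -0.53 for Kcnj14 (SE 0.18, adjusted p = 0.184) and -0.36 for Kcnv2 (SE 0.13, adjusted p = 0.216). Kcnj14 had 1650.0, 1595, 1365, 1123 and 1692 CPM in knockout retina, and Kcnv2 had 839, 819, 760.4, 633 and 862 CPM. Each overlapped its control range.

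By subfamily in retina, 3 of 24 tested Kv genes were called (median log2 change 1.30), 1 of 10 auxiliary genes (0.76), 1 of 5 calcium-activated genes (1.61), 0 of 8 Kir genes (1.39) and 0 of 3 K2P genes (0.43). In the authors' deposited table for retina, which came from a likelihood ratio test, 46 members are listed and 11 were past an adjusted p of 0.05 in the higher and 2 in the lower direction, where 5.58% of its 13330 genes were past it. Kcnj14 is among the lower ones in the authors' deposited table (log2 change -0.53, adjusted p = 0.0147). The authors' deposited table for microglia lists 27 members, with none past that threshold.

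Markers of several other retinal cell types moved with genotype in the same retina libraries, and those of others overlapped. The summed level of 9 bipolar cell markers was 447 to 985 CPM in controls and 1588 to 2986 CPM in knockouts, that of 8 cone markers 783 to 1794 and 2666 to 6359 CPM, and that of 7 amacrine markers 75.2 to 193 and 235 to 363 CPM. The sum of 5 endothelial markers was 10.6 to 42.3 CPM in controls and 65.9 to 141 CPM in knockouts, while that of 10 rod markers was 140282 to 207103 and 113911 to 143642 CPM. Members with at least 10 counts numbered 25 to 47 in control retina libraries and 46 to 54 in knockout retina libraries. The same direction held over all genes. Those with a count numbered 16510 to 18715 in control and 18761 to 19713 in knockout retina libraries, without overlap. With the rod level, the bipolar level or the gene number of the library as a covariate, 0 members were called in retina, and the calls over all genes fell from 255 to 0, 0 and 2. The 5 genes kept a positive sign in these fits. Under the rod and bipolar covariates the log2 change was 2.61 and 2.48 for Kcnab1, 2.07 and 1.89 for Kcna3, 1.60 and 1.37 for Kcnh2, 0.81 and 0.27 for Kcna5, and 0.63 and 0.46 for Kcnma1. The bipolar level and the gene number did not overlap between the genotypes, and the rod level overlapped only narrowly. Such fits cannot separate the covariate from genotype, so no conclusion is drawn from the lost calls or from these values. The part of these cells in the result was not tested.

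Kcna3 had like values in both fractions. Its mean was 5.29 ± 2.96 CPM in control microglia and 5.65 ± 1.51 in control retina, 21.2 ± 10.7 in knockout microglia and 22.7 ± 5.36 in knockout retina. Between the fractions the log2 difference was -0.14 in controls (SE 0.51, adjusted p = 0.847) and -0.18 in knockouts (SE 0.39, adjusted p = 0.739). Its genotype changes, 2.00 in microglia and 1.97 in retina, differed by -0.00 in a fit of all 18 libraries (SE 0.60, adjusted p = 1.00), with a 95% interval of the ratio of the 2 folds from 0.439 to 2.26. Microglial markers summed to 14.0 to 18.9 CPM in the control and 8.15 to 18.1 CPM in the knockout retina libraries. Those of monocytes and border macrophages (7 genes) summed to 0.224 to 5.00 CPM in control and 16.3 to 18.98 CPM in knockout retina, without overlap, and their part in the Kcna3 values was not tested.

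The test of whether genotype changes differed between the fractions called 0 of 57 members by edgeR, where 0.469% of 18128 genes were called, and 12 members had an unadjusted p under 0.05 (12.5% of all genes). DESeq2 called 7 members (6% of all genes) and limma voom 0 (0.8%). Kcnh1 had the smallest p, with an adjusted p of 0.0679. In control microglia the gene stood at 0, 7.41, 0 and 0.0541 CPM, and in knockout microglia at 0, 0.0276, 0, 0 and 0 CPM, so the control level rested on replicate 2. Kcnj8 followed (adjusted p = 0.1201), with 0, 0, 0.0503 and 3.08 CPM in control microglia and 0 counts in knockout microglia. Kcnk13 (adjusted p = 0.217) and Kcnmb4 (adjusted p = 0.513) had the smallest p of their subfamilies.

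Several members known for a role in the retina, in neurons or in glia were not called between genotypes in retina, and Kcnq1 among them was not tested. Kcnj10 (Kir4.1, the main potassium channel of Müller glia) had 5.299, 1.65, 1.33 and 15.2 CPM in control microglia, 6.72, 14.1, 2.62, 6.903 and 3.28 in knockout microglia, 14.8, 2.66, 1.41 and 3.51 in control retina and 4.79, 3.94, 16.1, 14.2 and 6.95 in knockout retina. These ranges overlapped, and no comparison called the gene. Müller glia markers summed to 1535 to 5888 CPM in the retina libraries. Kcnj13 (Kir7.1, of the retinal pigment epithelium) had 0 counts in microglia, 61 counts over the control and 23 over the knockout retina libraries, and shares 623 exon bases with Gigyf2 on the other strand. Kcnmb4, a BK subunit of neurons, had 11, 1, 51 and 67 counts over the libraries of control microglia, knockout microglia, control retina and knockout retina. Kcnq1 had 9, 15, 12 and 111. Kcna2 (Kv1.2, of axons) had 0, 0, 7.05 and 3.63 CPM in control and 15.03, 18.03, 18.7, 13.7 and 9.72 CPM in knockout retina (log2 change 2.45, SE 1.54, adjusted p = 0.561), and all knockouts lay above the controls. Kcnd2 (Kv4.2) had 0, 0, 0.911 and 0 CPM in control and 4.404, 0, 8.63, 0 and 2.72 CPM in knockout retina. Kcnc1 had 15.3, 0, 0 and 19.6 CPM in control and 29.1, 29.1, 55.1, 28.3 and 27.7 CPM in knockout retina (log2 change 1.90, SE 1.48, adjusted p = 0.677), again without overlap.

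Genes outside the Kcn family that move or bind potassium were read from a list of 32. Between the fractions of controls, 6 of 25 tested were higher and 9 lower in microglia, where 22.8% and 17.4% of all genes were. In knockouts the counts were 6 and 13 of 27, where 23.7% and 21.2% of all genes were. Among beta subunits of the sodium pump in controls, Atp1b2 was lower (log2 change -4.16, SE 0.22, adjusted p = 5.06e-06) and Atp1b3 higher (log2 change 2.43, SE 0.52, adjusted p = 0.00672) in microglia. In knockout retina 1 of 29 tested genes of the list was called, where 1.66% of all genes were. It was Slc12a5 (KCC2, the neuronal potassium-chloride exporter), at 378 ± 56.9 CPM in control retina and 938 ± 165 CPM in knockout retina (log2 change 1.27, SE 0.14, adjusted p = 0.01204). In knockout microglia 0 of 25 were called by edgeR (0.115% of all genes), 2 had an unadjusted p under 0.05 (5.76%), and DESeq2 called 1 (1.61%).

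Some values can hold reads of a neighbour, since the use of strand in counting is not given in the sources used here. Of the genes described above, Kcnab1 shares 201 of its 8593 exon bases with annotated genes on the other strand, Kcnma1 1016 of 16976, Kcnk1 179 of 2235, Kcnk3 229 of 3976, Kcnj9 172 of 4288, Kcnn1 132 of 4587, Kcnn2 607 of 7468, Kcnq1 121 of 4093 and Kcnmb4 1048 of 3324. Kcnab2 shares 125 of 5578 with a gene on its own strand, while Kcnk6, Kcnk13, Kcnd1, Kcna3, Kcna5 and Kcnh2 share none.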

How the data were processed

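RNA of the sorted cells was sequenced as paired reads after SMARTer amplification of 1 to 2 ng, per the labels' protocols. The authors deposited 1 table of raw counts per gene, and 2 tables of their own comparisons, which per the file headers hold a log2 fold change, a log2 mean CPM, a likelihood ratio score and a p-value with its adjusted value. STAR 2.7.9a, DRAGEN, Subread, featureCounts, edgeR, limma and the build GRCm38 are named in the submitters' processing notes, with no role given, and the strand setting is not given in the sources used here.

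Dropping 287 repeated lines with identical counts left 55487 genes. Exon lengths and positions came from GENCODE M21. Counts were tested with edgeR 4.0.16 in R 4.3.3, by its quasi-likelihood test with its filter on low counts, TMM composition factors and Benjamini-Hochberg adjustment over all genes tested, at 0.05. Intervals of 95% are the log2 change ± 1.96 SE. Genotypes were compared within each fraction, fractions within each genotype, and the interaction over all 18 libraries. The script was tested on simulated counts. Alternatives were DESeq2 1.42.0, limma voom 3.58.1, other scalings and filters, covariates, a replicate block and leaving out each library; the bipolar and gene-number covariates were chosen after seeing the data. The genes named were, per comparison, the members past the threshold or with the smallest p of their subfamily, those with the highest level per length, and a list by known role; Kcna1, Kcnh6 and the genes of the potassium handling list were picked after their values were seen. Some genes of these lists are not reported here. Members and lists were chosen with earlier results of these data known. Intervals and floors on counts cover counting error only.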

Additional observations from a re-analysis of the deposited data

Results flagged for a closer look

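In 106 groups of 4 or 5 libraries, 14 held a library far from the others by Dixon's criterion. A rate of 1 in 20 would give about 5.3, but that rate assumes normally distributed values. Several flagged groups stood at 0 in all libraries but the flagged one, so no conclusion is drawn from the number. In control retina, replicate 1 stood apart in 4 genes, with 4.21 CPM of Kcnc4 against 0 in the other libraries, 7.66 CPM of Kcnj2 against 0, 14.8 CPM of Kcnj10 against 1.41 to 3.51, and 6.64 CPM of Kcnn2 against 0.0826 to 0.312. Kcna3 was at 7.91 CPM in control retina replicate 4 against 4.75 to 5.15, and at 13.4 CPM in knockout retina replicate 4 against 23.4 to 26.5. Knockout retina replicate 3 had 236 CPM of Kcna5 against 161 to 172, 55.1 CPM of Kcnc1 against 27.7 to 29.1, and 31.1 CPM of Kcnn2 against 5.40 to 12.6. Knockout retina replicate 5 had 17.0 CPM of Kcnc4 against 6.54 to 9.42, and 5.71 CPM of Kcnd1 against at most 0.0860. In microglia, Kcnh1 was at 7.41 CPM in control replicate 2 against at most 0.0541, and Kcnk3 at 11.9 CPM in control replicate 4 against 1.32 to 2.57 and at 5.93 CPM in knockout replicate 5 against 0.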

How the results depend on the processing

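DESeq2 called 1 member in microglia, 13 in retina (12 higher and 1 lower) and 7 in the interaction, against 0, 5 and 0 by edgeR. One fit over all 18 libraries called 2 of 57 members in retina (1.20% of all genes). Between the fractions of controls it called 20 of 57 (38.1% of all genes), against 12 of 37 (40.2%) in the main fit. With the rod level, the bipolar level or the gene number of the library as a covariate, 0 members were called in retina; the cause was not tested. Leaving out each library in turn gave 0 to 0 members in microglia, 3 to 7 in retina, 0 to 1 in the interaction (1 without knockout microglia replicate 5 or knockout retina replicate 5), 11 to 17 between fractions in controls and 27 to 38 in knockouts. Of all genes, these omissions called 0.0259 to 0.145% in microglia, 0.647 to 2.14% in retina and 0.268 to 0.754% in the interaction. Between fractions the shares were 33.4 to 36.8% in controls and 40.2 to 46.6% in knockouts.

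Signs changed only for members without a call. In microglia, Kcnk6 was at -0.0245 on the log2 scale with limma voom, -0.22 with the gene-number covariate and between -0.0892 and 0.21 over the omissions (-0.0892 and -0.0145 without knockout replicates 2 and 3), and Kcnab2 at 0.21 with the gene-number covariate. In retina with the rod covariate, the log2 changes were -0.74 for Kcnk3, 0.39 for Kcnj14, 0.0698 for Kcnv2, -0.304 for Kcne2, -0.42 for Kcnh6 and -0.38 for Kcnj9. With the bipolar covariate they were -1.11 for Kcnk3, 0.27 for Kcnj14, -1.32 for Kcne2, -0.41 for Kcnh6, -1.20 for Kcnj9 and -0.21 for Kcnab2, and with the gene-number covariate 0.064 for Kcnj14. Of the other values for single genes, omissions of libraries aside, 517 kept direction and side of the threshold, 24 lost and 15 gained a call.

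The replicate numbers are not stated to mark an animal. Same-numbered libraries of 2 groups correlated at -0.0464 to 0.0577, after the group mean of each gene was taken off. This range includes pairs of a control and a knockout library, and it does not decide whether a number marks the same animal in both fractions. With the replicate block, 0 members were called in microglia (0.0135% of all genes) and 0 in retina (where 0 of all genes were). In these 2 comparisons the block joins a control and a knockout library of the same number, which come from different mice. It is therefore not a paired design there, and no conclusion is drawn from the lost calls. In the interaction the block joins the fractions under the same number and genotype, and 0 members were called (0.0496%). Between fractions the block gave 12 calls in controls (29.2% of all genes) and 33 in knockouts (41.7%). Library totals without composition factors moved the median of all genes from -0.10 to -0.24 between fractions in knockouts and from -0.13 to -0.23 in the interaction. At 3 counts, 0.0631 to 0.0929 CPM, differences in the lowest members were not detectable.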
